A study of Mus musculus with 1 sample.

Results

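The 10 genes described here carry out antigen presentation by the major histocompatibility complex (MHC). They are the class I heavy chains H2-K1 and H2-D1, their light chain B2m, the peptide transporter subunit Tap1, the class II chains H2-Aa, H2-Ab1 and H2-Eb1, the invariant chain Cd74, the exchange factor subunit H2-DMa and the class II transactivator Ciita. They were chosen by name, with earlier results of these data known, and all 10 were found among the 54532 genes listed. The study asked how loss of Gadd45g changes gene expression in bone marrow (BM) cells of mice with a myeloproliferative neoplasm (MPN). The data examined here are 1 library, named Ctrl, from C57BL/6 mice of wild type genotype. The cells were FACS-sorted c-kit+ BM cells, given in the labels as Lin-, cKit+ and Sca1-. The study deleted Gadd45g in blood cells with floxed alleles and Vav-Cre, and whether the Ctrl mice carried either is not given in the sources used here. Mice of both sexes were used in the study, but the number, age and sex of those behind this library, and whether RNA was pooled, are not given there either. The MPN library was not analysed here, so there are no replicates, no comparison between groups and no test.

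MHC class I molecules are carried by nearly all nucleated cells and show T cells peptides from the cytosol. The proteasome makes these peptides, the transporter formed by Tap1 and Tap2 moves them into the endoplasmic reticulum, and they bind there to a heavy chain paired with B2m. MHC class II molecules are held by professional antigen-presenting cells such as B cells, dendritic cells and macrophages. In these cells Cd74 occupies the class II groove until endolysosomal proteases degrade it and H2-DM exchanges the remnant for a peptide, and Ciita switches the class II genes on. Stem and progenitor cells of the marrow are also known to carry class II molecules.

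Of the set, 7 genes lie in the MHC on chromosome 17 (GRCm38, GENCODE M21). H2-K1 is at chr17:33996017-34000347, H2-DMa at chr17:34119541-34139101, Tap1 at chr17:34187553-34197225, H2-Ab1 at chr17:34257689-34269419, H2-Aa at chr17:34282744-34287823, H2-Eb1 at chr17:34305867-34316674 and H2-D1 at chr17:35262730-35267499. B2m is at chr2:122147686-122153083 and Ciita at chr16:10480059-10528418. All 10 are annotated as protein-coding, and a value in FPKM counts fragments over all exons of a gene.

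The promoters are shown because class I and class II genes are known to share a control module of X and Y boxes, on which Ciita and its class I counterpart Nlrc5 act. RefSeq windows (GRCm38.p6) were given for 7 of the 10 genes, and not for Cd74, H2-Ab1 and Ciita. Each line below runs 5′ to 3′ along the gene and ends at or next to the RefSeq transcription start. H2-K1 covers chr17:34000348-34000547 on the minus strand, B2m chr2:122147487-122147685 on the plus strand, H2-Aa chr17:34287824-34288023 on the minus strand and H2-Eb1 chr17:34305667-34305866 on the plus strand. Capitals mark matches on either strand to the letters TGACGTCA (as in the X2 box), TGACGCG (a variant of it), CTGATTGG (as in the Y box, an inverted CCAAT box), GGGGATTCC (a binding sequence of NF-kB type, as in class I enhancer A) and TTTCNNTTT (as in interferon-stimulated response elements).
H2-K1: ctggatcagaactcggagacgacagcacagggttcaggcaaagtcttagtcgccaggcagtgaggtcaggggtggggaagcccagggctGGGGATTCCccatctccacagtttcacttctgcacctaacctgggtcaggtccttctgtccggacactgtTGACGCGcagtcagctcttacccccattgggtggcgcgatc
B2m: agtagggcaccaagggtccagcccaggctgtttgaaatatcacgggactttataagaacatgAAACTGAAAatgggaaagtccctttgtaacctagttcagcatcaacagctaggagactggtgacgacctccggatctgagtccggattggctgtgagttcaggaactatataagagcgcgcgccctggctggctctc
H2-Aa: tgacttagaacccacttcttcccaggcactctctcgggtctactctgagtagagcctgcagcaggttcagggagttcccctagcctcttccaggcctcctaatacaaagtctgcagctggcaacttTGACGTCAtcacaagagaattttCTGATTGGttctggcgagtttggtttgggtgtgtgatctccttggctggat
H2-Eb1: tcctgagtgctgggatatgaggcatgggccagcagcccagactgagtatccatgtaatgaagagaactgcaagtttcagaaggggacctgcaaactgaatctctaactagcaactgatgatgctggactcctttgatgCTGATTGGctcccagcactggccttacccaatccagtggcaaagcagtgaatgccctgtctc

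In the 250 bases before the RefSeq start, searched on both strands, CTGATTGG was found in 4 of the 7 genes. In H2-Aa and H2-Eb1 it was on the strand of the gene, 51 and 62 bases before the start. In Tap1 and H2-D1 it was on the opposite strand, 222 and 53 bases before the start. Of all 32851 RefSeq windows 3.83% held CTGATTGG. Its core ATTGG, which those matches contain, was in 6 of the 7 genes, all but H2-DMa, and in 33.8% of all windows. Only the first RefSeq window of each gene was read. For H2-DMa it lies 3291 bases inside the GENCODE gene, so the bases before any other start of H2-DMa were not searched. TGACGTCA was found in H2-Aa alone of the 7, with a share of 1.55% over all windows. In H2-Aa it began 74 bases before the start, upstream of CTGATTGG at 51 bases. H2-K1 and H2-D1 were the genes of the set with TGACGCG (1.56% of all windows) and with GGGGATTCC, which 70 of the 32851 windows held (0.213%). In both, GGGGATTCC began 70 bases upstream of TGACGCG. B2m was the only one of the 7 genes with a full match to TTTCNNTTT (9.37% of all windows). The stretches of H2-K1 and H2-D1 printed below end in tttcactt, which matches this pattern up to its last base. The motifs were chosen after the values were seen, so the shares over all windows are given as background and not as a test. A match is a description of the letters, not a measured binding site, and no binding data were examined.

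The 30 bases that begin 1 base before the GGGGATTCC match differed between H2-K1 and H2-D1 at 1 position, with 29 of 30 the same. They lie at chr17:34000430-34000459 on the minus strand and at chr17:35262922-35262951 on the plus strand, and the capitals mark the match. The RefSeq start read for H2-D1 lies 364 bases inside the gene as GENCODE M21 annotates it, so that the H2-D1 stretch is upstream of the RefSeq start and within the GENCODE gene. That of H2-DMa lies 3291 bases inside its gene, and those of the other 5 genes with a window lie within 3 bases of the GENCODE start.
H2-K1: tGGGGATTCCccatctccacagtttcactt
H2-D1: tGGGGATTCCccatctcctcagtttcactt
Over the 190 aligned bases upstream of both RefSeq starts, H2-K1 and H2-D1 were 87.4% identical. Over the 1078 aligned bases of their longest open reading frames, gaps left out, they were 91.5% identical. The same measure was 73.8% for H2-Ab1 and H2-Eb1 (789 bases) and 59.0% for H2-Aa and H2-DMa (709 bases). With such alike transcripts, reads could be shared between copies. For each gene 1 protein-coding transcript was searched, and exon bases outside it were not. That of H2-K1 has 1619 bases and that of H2-Aa 1128, against 2608 and 3748 bases of exon behind their values. Within these transcripts, none of the 100-base stretches of H2-K1 was found exactly in a transcript of another gene. Of H2-D1 4.64% were, in 9 other genes, and the other 8 genes of the set shared none.

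Levels are in FPKM, fragments per kilobase of exon and per 1000000 fragments, and the interval beside each is a 95% Wilson interval of the share of fragments recovered from the value, which covers counting error only. All 10 genes were at 1 FPKM or more, the level called detected here. Of all listed genes 22.2% reached that level (12111 genes), and of protein-coding genes 46.9%. These shares are the background for every count of detected genes below. The median of the 12111 detected genes was 7.77 FPKM, and 9 of the 10 genes lay above it. Together the 10 genes summed to 4636 FPKM, 1.08% of the summed FPKM of the library, and they held 0.731% of the fragments (95% interval, 0.727% to 0.735%). The recovered fragments, 16685264, exceed the total of 15783891 that the FPKM of 1 fragment implies, and did so already over the genes with M21 lengths (15867825). Against that lower total the share was 0.773%, and the cause of the mismatch was not tested. The highest, B2m, was 325 times the lowest, Ciita. The library was sorted cells in bulk, so fewer cells of a type and less RNA per cell cannot be told apart in any of these levels.

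**Figure D1:**
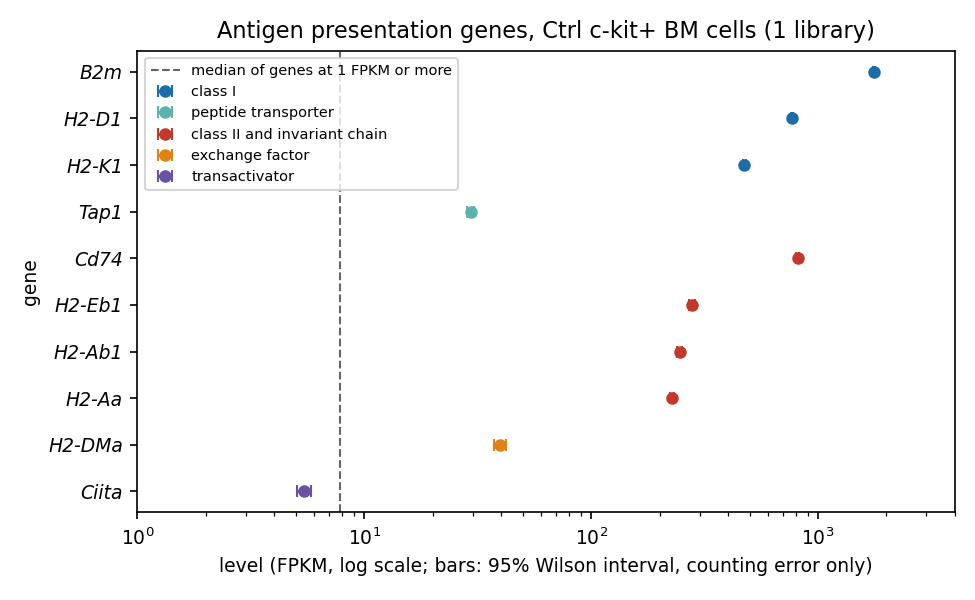
Levels of the 10 genes in the 1 Ctrl library, in FPKM on a log axis, coloured by role, with bars for the 95% Wilson interval and a dashed line at 7.77 FPKM, the median of the detected genes. The class I and class II chains and Cd74 sit between 227 and 1761 FPKM, H2-DMa and Tap1 at 39.7 and 29.4 FPKM, and Ciita alone below the line at 5.42 FPKM.

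Class I chains made up most of the signal of the set. B2m, the light chain that every class I heavy chain needs to leave the endoplasmic reticulum, was at 1761 FPKM (1739 to 1783, 23903 fragments) and ranked 21 among all listed genes. H2-D1 was at 767 FPKM (759 to 776, 31236 fragments) and ranked 41. H2-K1 was at 472 FPKM (465 to 478, 19421 fragments) and ranked 81. These are the 2 classical heavy chains present in C57BL/6 mice, which lack an H2-L gene, and both lay above the 99th percentile of the detected genes (99.7 and 99.3).

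H2-D1 was 1.63 times H2-K1 in FPKM (exact 95% interval 1.60 to 1.66). With the length of the longest transcript of each gene the ratio was 1.43, and with that of the longest protein-coding transcript, a length chosen after the values were seen, 1.24, so H2-D1 was the higher under each length. B2m was 1.42 times the sum of the heavy chains in FPKM (1.40 to 1.44). That order rests on the division by length: B2m, with 860 bases of exon against 2579 for H2-D1 and 2608 for H2-K1, gave fewer fragments than both chains together (23903 against 50657, a ratio of 0.472).

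The other class I heavy chains were far lower. Of the 20 class I and class I-like genes listed, 12 were detected, beside 46.9% of all protein-coding genes. The median over all 20 was 6.83 FPKM. H2-T23, the Qa-1 molecule that is read by natural killer cell receptors, was the highest at 101 FPKM (97.8 to 104), and H2-D1 was 7.62 times that (7.39 to 7.86), a ratio added after the values were seen, which was 4.77 with the longest protein-coding transcripts. H2-Q6 was at 79.1 FPKM and H2-T24 at 61.3 FPKM, while H2-M5, H2-T3 and H2-M9 were listed at 0. For H2-M5 at 0, 3 fragments would have given 0.0706 FPKM. By the 1 transcript searched for each gene, levels of some of these genes are less certain than those of the set. Of the 100-base stretches, 10.8% for H2-Q6 and 7.28% for H2-T23 occur in other genes, against 0% for H2-T24.

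The genes that feed and load class I molecules were all detected. Tap1, which pumps peptides with Tap2, was at 29.4 FPKM (28.3 to 30.6, 2542 fragments), the 83.4th percentile of the detected genes. Tap2 was at 21.5 FPKM (20.4 to 22.8), and Tap1 was 1.36 times Tap2 (1.28 to 1.46), also a ratio added later, which was 2.30 with the longest protein-coding transcripts. Tapasin (Tapbp), which bridges the transporter to the heavy chain, was at 60.3 FPKM (58.2 to 62.4). All 9 genes of the loading list were detected, with a median of 60.3 FPKM. Chaperones that also serve other proteins led it, with Calr at 268 FPKM, Hspa5 at 160 FPKM and Pdia3 at 148 FPKM. Erap1, the peptidase that trims the peptides, was lowest at 8.90 FPKM.

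The immunoproteasome genes sat near Tap1. All 5 were detected between 24.2 and 55.1 FPKM. Psme1, a subunit of the activator cap, was highest at 55.1 FPKM, followed by Psmb10 at 41.2 FPKM, Psmb8 at 38.8 FPKM and Psme2 at 34.9 FPKM. Psmb9, which lies head to head with Tap1, was lowest at 24.2 FPKM (22.99 to 25.5), beside 29.4 FPKM for Tap1 itself.

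Class II genes were among the more abundant RNAs of the library as well. Cd74 (chr18:60803848-60812652), the chaperone of newly made class II molecules, was at 811 FPKM (799 to 823, 18051 fragments) and ranked 37, between B2m and H2-D1. The I-A chains H2-Ab1 and H2-Aa were at 245 FPKM (239 to 251, 6337 fragments) and 227 FPKM (223 to 231, 13446 fragments). H2-Eb1, the beta chain of I-E, was at 278 FPKM (271 to 286, 5198 fragments). All 3 chains lay between the 98.3th and the 98.7th percentile of the detected genes and summed to 751 FPKM, 0.175% of the summed FPKM. Cd74 was 3.57 times H2-Aa (3.49 to 3.65).

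The 3 class II chains lay within 1.22 times of each other as deposited, and their order depended on the gene length used. H2-Ab1 was 1.08 times H2-Aa (1.05 to 1.11) and H2-Eb1 was 1.13 times H2-Ab1 (1.09 to 1.18). The value of H2-Aa was made with 3748 bases of exon, whereas its longest protein-coding transcript has 1128 bases, and the file does not say which of these bases the fragments covered. With the protein-coding transcripts, H2-Aa came to 755 FPKM, H2-Ab1 to 331 FPKM and H2-Eb1 to 197 FPKM, so that the order turned and H2-Aa came near Cd74 (ratio of Cd74 to H2-Aa, 1.07). The gene length behind H2-Eb1 is itself less sure, since 3 lengths gave whole fragments for its value, 592, 1184 and 1776 bases, with 2599, 5198 or 7797 fragments, and 1184 bases was used. For Cd74 and H2-DMa 2 lengths did so, and the other one would give 12034 fragments for Cd74 and 2054 for H2-DMa at the same FPKM. The intervals given for these 3 genes and for ratios with them hold for the fragments used.

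**Figure D2:**
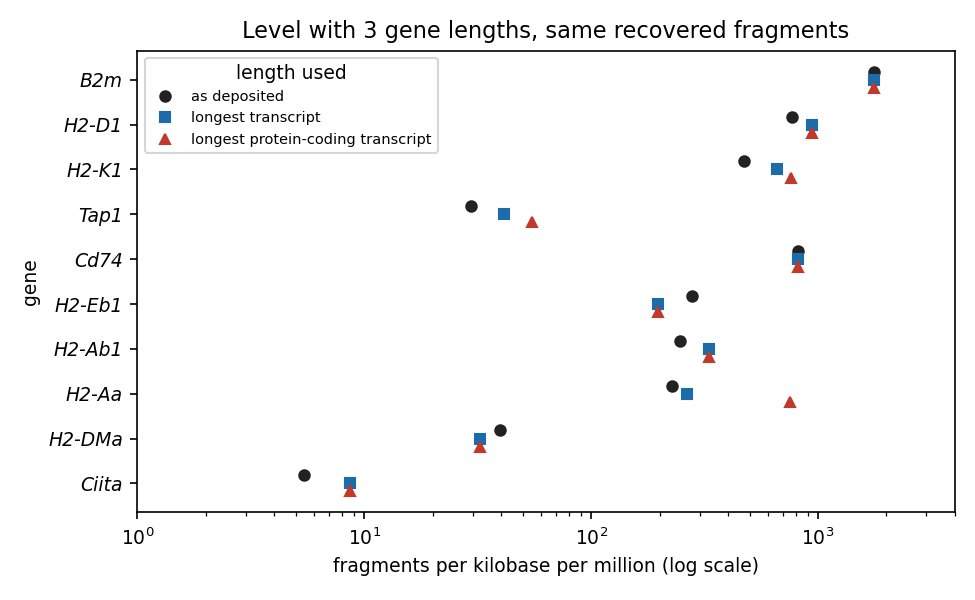
Levels of the 10 genes in the Ctrl library with the same recovered fragments and 3 gene lengths, on a log axis: circles as deposited, squares with the longest transcript, triangles with the longest protein-coding transcript. H2-Aa moves from 227 to 755 with the protein-coding transcript, the largest step of the 10, while B2m and Cd74 stay at 1761 and 811.

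Of the class II genes of the set and the 6 others read, the gene of the I-E alpha chain alone was not detected. C57BL/6 mice have the b haplotype, in which a promoter deletion silences the H2-Ea gene, so that H2-Eb1 has no partner and I-E does not reach the surface. The gene is listed here as H2-Ea-ps and was at 0.277 FPKM, from 3 fragments (0.0942 to 0.815), while H2-Eb1 was at 278 FPKM. H2-Eb2, a further beta chain gene next to H2-Eb1, was at 5.68 FPKM (4.94 to 6.53).

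The exchange factors were lower than the chains they act on. H2-DMa, the alpha chain of H2-DM, was at 39.7 FPKM (37.3 to 42.2, 1027 fragments), the 87.8th percentile, and Cd74 was 20.5 times that in FPKM. Its beta chains H2-DMb2 and H2-DMb1 were at 37.9 FPKM (35.6 to 40.3) and 27.5 FPKM (25.4 to 29.7). Their open reading frames are 95.9% identical and 13.5% and 13.7% of their 100-base stretches occur in the other, so the split between them is uncertain. H2-DMa was 0.606 times their sum (0.561 to 0.656). For H2-DMb2, as for H2-DMa, 2 lengths gave whole fragments, so its interval and that of this ratio hold for the fragments used. H2-Ob and H2-Oa, which form the H2-DM inhibitor H2-O of B cells, were at 24.8 FPKM (23.5 to 26.2) and 10.08 FPKM (8.80 to 11.5), and H2-Ob was 2.46 times H2-Oa (2.13 to 2.87), or 5.91 times in fragments not divided by length. The last 3 ratios were added after the values were seen. Of the 6 other class II genes found in the file, 5 were detected, all but H2-Ea-ps.

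Genes of the endolysosomal route, in which Cd74 is cut and class II peptides are made, were detected in 10 of 10, with a median of 34.6 FPKM. Cathepsin S (Ctss), which makes the last cuts in Cd74, was highest at 199 FPKM (193 to 205). Ctsd was at 169 FPKM and Ctsb at 145 FPKM. March1, a ubiquitin ligase that removes class II from the surface, was lowest at 6.35 FPKM. These proteases also serve lysosomes in general, and their genes are expressed by many cell types.

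The regulators were all lower than the class I and class II chains and Cd74. Ciita, the coactivator that class II transcription requires, was at 5.42 FPKM (5.06 to 5.81, 816 fragments), the 39.4th percentile of the detected genes. Nlrc5, its class I counterpart, was at 5.88 FPKM (5.48 to 6.30). Rfx5, the X box binding subunit of the RFX complex, was lowest of the list at 3.76 FPKM (3.37 to 4.19). All 12 regulators were detected, with a median of 8.96 FPKM, and 6 of them lay above the median of the detected genes. Irf1, an interferon-induced activator of class I genes, was highest at 26.4 FPKM, and the Y box factor subunits Nfyc and Nfya followed at 21.2 FPKM and 19.9 FPKM.

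**Figure D3:**
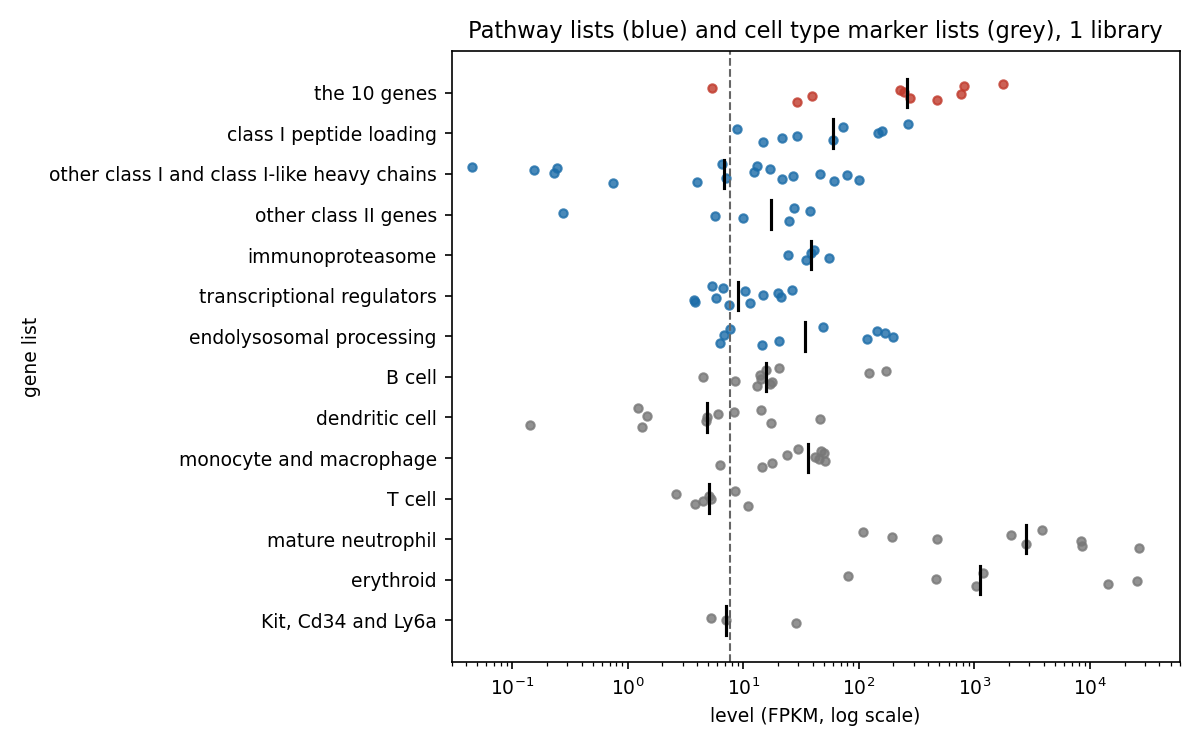
Levels in FPKM, on a log axis, of the 10 genes (red), of the other pathway lists (blue) and of cell type marker lists (grey) in the 1 Ctrl library. Each point is a gene, the black bars are list medians, the dashed line is the median of the detected genes at 7.77 FPKM, Tap1 and Ciita are also drawn in their pathway lists, and the 3 class I genes listed at 0 are not drawn. The median of the 10 genes, 262 FPKM, lies above those of the other pathway lists, and the neutrophil and erythroid lists lie highest.

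The sorted cells are labelled Lin- and cKit+, so markers of other cells were read beside the class II levels. Kit, the sorted receptor, was at 7.17 FPKM (6.74 to 7.62) and Cd34 at 5.22 FPKM, both below the median of the detected genes, and Ly6a, which encodes Sca1, the marker given as negative, was at 28.5 FPKM (26.2 to 31.1). Of the 10 genes, 9 were higher than Kit. The 9 mature neutrophil markers, all detected, held 12.4% of the summed FPKM and the 6 erythroid markers 9.92%. Cells of these late stages are outside the labelled gate. How they bear on the class I and class II levels was not tested.

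Genes listed as markers of the cells that carry class II were detected in the same library, and which cells expressed them was not tested. Of all protein-coding genes 46.9% were detected. Of 11 B cell markers 11 were detected, with a sum of 422 FPKM. They were led by the antigen receptor components Cd79a at 173 FPKM and Cd79b at 123 FPKM, and Ebf1, a factor of early B cells, was lowest at 4.53 FPKM. Of 10 monocyte and macrophage markers 10 were detected, with a sum of 329 FPKM. Csf1r was at 51.5 FPKM, C1qb at 50.3 FPKM and C1qa at 47.4 FPKM. Of 11 dendritic cell markers 10 were detected, with a sum of 106 FPKM. Irf8 gave 46.5 FPKM of that sum, followed by Siglech at 17.3 FPKM and Ccr7 at 14.3 FPKM. Cd209a, Clec10a, Flt3 and Itgax were at 8.40, 6.10, 4.90 and 4.80 FPKM. Clec9a was at 1.48 FPKM, the conventional dendritic cell factors Zbtb46 and Batf3 were at 1.34 and 1.23 FPKM, and Xcr1 was at 0.142 FPKM. The 7 T cell markers were all detected, at 2.62 to 11.1 FPKM, with a sum of 40.9 FPKM. The list medians were 15.8 FPKM for B cells and 36.1 FPKM for monocytes and macrophages. Those for dendritic cells and T cells, 4.90 and 5.02 FPKM, lay below the median of the detected genes, 7.77 FPKM. For comparison, the 3 class II chains summed to 751 FPKM and Cd74 alone was at 811 FPKM. The part of each cell type in the class II levels was not tested, and with 1 library no marker can be followed against them across samples.

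Along chromosome 17, 5 of the 7 genes of the set there were higher than every neighbour between H2-K1 and H2-D1. The stretch from H2-K1 to H2-D1, chr17:33996017-35267499, is 1.27 Mb long and holds 85 protein-coding genes, of which 57 were detected (67.1%, against 51.5% of the 1053 protein-coding genes of the chromosome). The median of the 57 was 23.9 FPKM. The 5 highest of the 85 were H2-D1, H2-K1, H2-Eb1, H2-Ab1 and H2-Aa, and the next was Clic1 at 188 FPKM. H2-DMa was the 15th and Tap1 the 21st. The 7 genes of the set held 60.6% of the summed FPKM of the stretch. Beyond H2-D1, protein-coding genes of the nonclassical families were detected in 4 of 6 for H2-Q, 3 of 4 for H2-T and 1 of 12 for H2-M, where 7 were listed at 0. The single H2-M gene was H2-M3, which binds formylated bacterial peptides, at 17.2 FPKM (15.6 to 19.02).

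**Figure D4:**
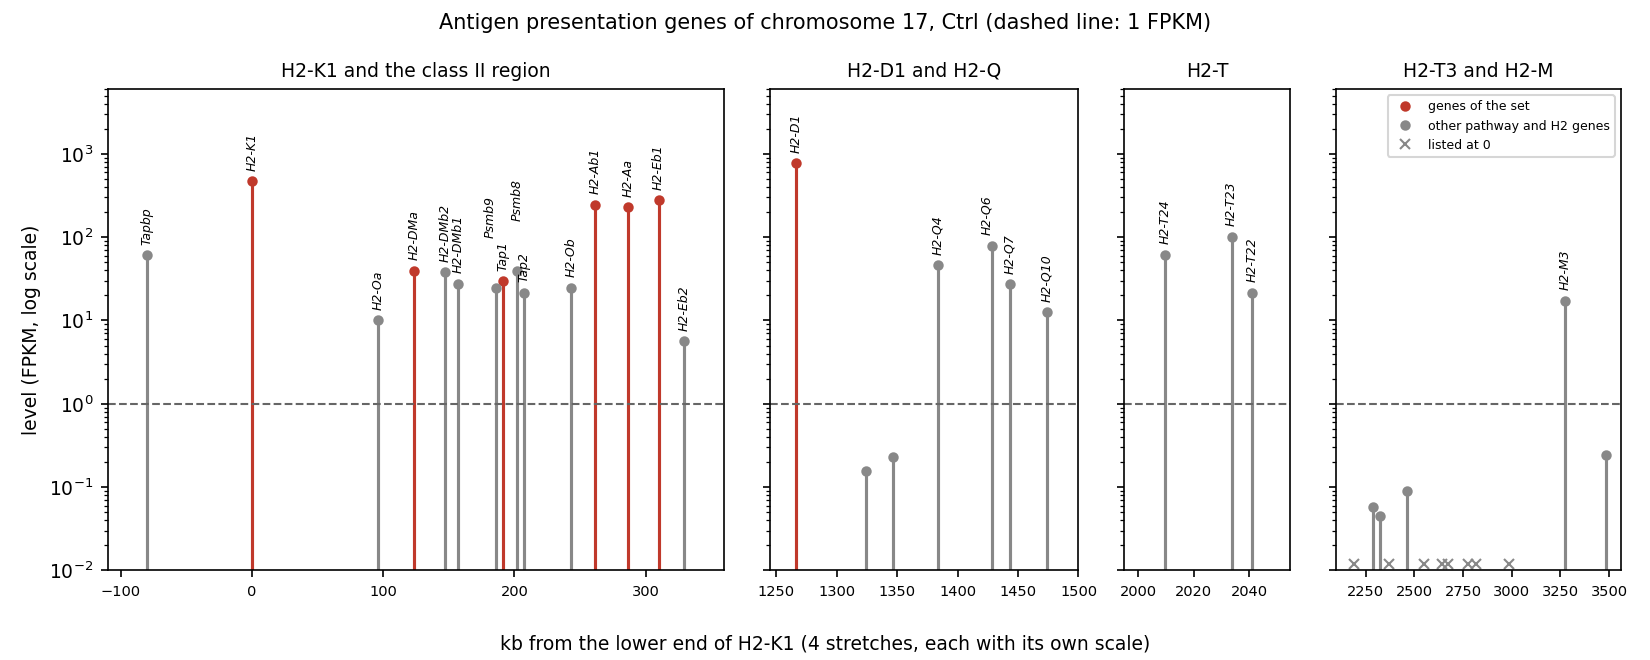
Levels in FPKM, on a log axis, of antigen presentation genes of chromosome 17 against their distance in kb from the lower end of H2-K1, in 4 stretches with separate scales and with a dashed line at 1 FPKM. The genes of the set are red, and those under 1 FPKM carry no name. H2-K1, the cluster of H2-Ab1, H2-Aa and H2-Eb1, and H2-D1 rise above 200 FPKM, H2-DMa and Tap1 share the range of their neighbours, and H2-M genes other than H2-M3 are near or at 0.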

How the data were processed

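The 1 Ctrl library was sequenced on an Illumina HiSeq. Its deposited table holds FPKM made by the authors. The submitters' processing notes name HISAT2 2.0.5, featureCounts 1.5.0-p3 and mm10. The annotation release, strandedness, read length and handling of reads with several matches are not given in the sources used here. Symbols and lengths came from GENCODE M21 on GRCm38 (54409 identifiers matched).

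Fragments were recovered as whole multiples of the FPKM of 1 fragment, with a relative tolerance of 2e-10. The M21 length served for 20507 of 21322 genes above 0, a searched length for 772, and 43 had none. They sum to 16685264, above the total of 15783891 that the FPKM of 1 fragment implies. Lengths unlike M21 lay mostly on chromosomes 17 to 19, where 63.5% of the genes matched, against 99.9% elsewhere. Where several lengths were possible, that nearest an older gene model (transcripts numbered under 230000) was used.

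Values are Wilson intervals for levels and exact Clopper-Pearson intervals for ratios. All 10 genes are named. From each pathway list the 3 highest genes and the lowest are named, and always Tap2, Tapbp, H2-DMb1, H2-DMb2, H2-Oa, H2-Ob, Rfx5, Nlrc5, Psmb8 and Psmb9. Other names were chosen after their values were seen, as were the motifs. The genes and lists were chosen with earlier results of these data known. A marker of the lists is not reported here. For genes with several RefSeq promoter windows the first was read. Alternatives were other detection minimums, totals, gene lengths and backgrounds. Python 3.11.15, numpy 2.4.6, pandas 2.3.3, scipy 1.17.1, matplotlib 3.10.9 and Biopython 1.88 were used.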

Additional observations from a re-analysis of the deposited data

How the results depend on the processing

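No paired analysis was possible because there is 1 library and its label carries no replicate number. With a minimum of 10 FPKM 9 of the 10 genes were detected, and with 0.1 FPKM all 10. The median level of the 10 genes, 262 FPKM, became 610 as TPM, 353 without the 10 highest genes in the total, 272 without mitochondrial genes in it, and 543 with the longest protein-coding transcripts. The first 3 multiply every gene alike, by 2.33, 1.35 and 1.04, and leave the order of genes and every ratio unchanged. The share of fragments in the 10 genes, 0.731%, was 0.773% of the total that the FPKM of 1 fragment implies, an alternative chosen after seeing the data. The median percentile, 98.6, was 98.6 among protein-coding genes and 98.0 in recovered fragments.

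In fragments not divided by length, B2m to H2-K1 plus H2-D1 turned to 0.472, H2-Ab1 to H2-Aa to 0.471 and H2-Eb1 to H2-Ab1 to 0.820, Cd74 to H2-Aa was 1.34, and H2-D1 to H2-K1 stayed within its interval at 1.61. With the longest transcript these ratios were 1.102, 1.25, 0.596 (turned), 3.07 and 1.43 in the same order. With the longest protein-coding transcript, chosen after seeing the data, they were 1.03, 0.439 (turned), 0.596 (turned), 1.07 and 1.24. The H2-Eb1 transcript used there carries a number above 230000. Ciita lay at the 39.4th percentile in FPKM and the 63.7th in fragments, and H2-DMa at the 87.8th and 70.0th. The intervals hold counting error only, and the spread between mice is unknown.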
